A study of Mus musculus with 6 samples.

Results

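Genes of the forebrain interneuron lineage were followed in nuclei of the postnatal mouse brain after injection of lysophosphatidic acid (LPA) or vehicle. The 8 members are the homeobox genes Dlx1, Dlx2 and Dlx5, the long non-coding RNA Dlx6os1, the zinc finger genes Sp8 and Sp9, the microtubule gene Dcx and the SRY-box gene Sox11. They were taken by symbol from the gene list of the count matrices, and all 8 were found among its 32285 features. C57BL/6 S-56 pups received 5 µl of LPA or of vehicle (bovine serum albumin in phosphate-buffered saline) into the right lateral ventricle on postnatal day 7, a model of post-hemorrhagic hydrocephalus (PHH), and brains without olfactory bulbs and cerebellum were collected on day 15. Nuclei were stained for NeuN, the NeuN-negative fraction was sorted, and single-nucleus RNA-seq was run on 3 libraries of LPA and 3 of vehicle. No genotype separated the groups, and which LPA concentration these mice received was not clear from the sources used here.

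DLX transcription factors start and maintain the program of GABAergic interneurons in the ventral forebrain, and SP8 and SP9 act beside them in interneurons bound for the olfactory bulb. After birth these cells still arise next to the lateral ventricle, and as neuroblasts they migrate along the rostral migratory stream while they express doublecortin (Dcx), a microtubule-binding protein, and Sox11, a transcription factor of immature neurons. Dlx6os1 (also known as Evf2) is transcribed from the Dlx5 and Dlx6 locus and modulates DLX-driven enhancers.

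In the GRCm38 annotation, Dlx1 (chr2:71528113-71533981, plus strand) and Dlx2 (chr2:71543408-71546754, minus strand) are neighbours, and so are Dlx6os1 (chr6:6820189-6871592, minus) and Dlx5 (chr6:6877805-6882085, minus). Dlx1as runs antisense across Dlx1, and Dlx6 lies antisense within Dlx6os1. Sp9 (chr2:73271925-73284706, plus) shares a chromosome with the first pair, Sox11 (chr12:27334264-27342574, minus, 1 exon) and Sp8 (chr12:118846329-118852576, plus) lie on chromosome 12, and Dcx (chrX:143855842-143933311, minus) is X-linked. The 250 bases before the RefSeq start of 3 members are shown because they differ in the homeodomain core TAATTA, letters that DLX proteins are known to bind (build GRCm38.p6, minus strand, 5′ to 3′, TAATTA in capitals). TAATTA reads the same on both strands, so 1 search covers both.

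Dlx2 (chr2:71546755-71547004): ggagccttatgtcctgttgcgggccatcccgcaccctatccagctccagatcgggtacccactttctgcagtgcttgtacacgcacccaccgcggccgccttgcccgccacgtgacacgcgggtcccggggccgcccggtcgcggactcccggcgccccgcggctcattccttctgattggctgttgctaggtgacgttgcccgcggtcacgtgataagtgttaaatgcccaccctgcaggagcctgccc
Sox11 (chr12:27342719-27342968): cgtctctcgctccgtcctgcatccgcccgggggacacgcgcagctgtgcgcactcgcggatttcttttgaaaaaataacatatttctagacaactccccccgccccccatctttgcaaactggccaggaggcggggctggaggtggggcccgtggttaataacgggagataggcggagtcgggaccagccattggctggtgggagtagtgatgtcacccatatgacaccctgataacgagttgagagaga
Dlx6os1 (chr6:6869534-6869783): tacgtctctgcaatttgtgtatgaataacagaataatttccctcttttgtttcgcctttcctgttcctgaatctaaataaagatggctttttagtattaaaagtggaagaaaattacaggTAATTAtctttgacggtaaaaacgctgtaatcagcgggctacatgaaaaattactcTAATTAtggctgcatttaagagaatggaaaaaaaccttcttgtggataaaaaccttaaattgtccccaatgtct

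The Dlx6os1 window overlaps an annotated exon of Dlx6os1 itself, a non-coding gene, and held 2 matches, and the Dlx2 and Sox11 windows held none and touch no annotated gene. Over all members, 5 of 11 windows held TAATTA, from 3 of the 7 members that had a window, against 4.84% of 32851 windows in the whole table. The 2 Dcx windows overlap and hold the same match, so it is counted in both. The Dlx2 window held 24 CpG dinucleotides and the Sox11 window 17, against 5 in the Dlx6os1 window and a median of 6 over all windows. These matches describe letters in the windows, and no binding was measured.

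The matrices held raw UMI counts, and 57443 nuclei were kept, 7579 to 11745 per library. Between 16 and 39 barcodes were shared by any pair of libraries. Clusters were named from marker lists, and 13738 nuclei (5775 LPA, 7963 vehicle) lay in neuronal clusters although the sort selected against NeuN, so neuronal shares depend on how the gate was set and are shares of sorted nuclei only. Median depth in neuronal nuclei was 5668 to 6519 UMIs in LPA and 4605 to 5934 in vehicle. Scrublet scored 12.3% to 15.4% of nuclei per library as doublets; they were kept here and removed in an alternative. A neuronal nucleus was called Dlx-positive when it held at least 2 UMIs of Dlx1, Dlx2, Dlx5 and Dlx6os1 together, which gave 3172 Dlx-positive and 10566 other neuronal nuclei. A single cluster of 439 nuclei was named neuroblast-like because the neuroblast list scored highest there, by its 6 strongest markers. At least 3 markers also had to be found in over 10% of nuclei. Here 17 of the 19 were, against 16 in a neuronal cluster led by Cpa6. Of the 19 neuroblast markers, 14 were over 2-fold the level of all neuronal nuclei outside the cluster, Dlx-positive or not. None of the 8 members is on that list, and all 8 were kept out of the variable genes of the clustering. Genes that vary with them could still enter. Their levels in this cluster against other types are therefore given as a description with no test. Its leading genes were 2610307P16Rik, Gm29260, Igfbpl1, Smoc1, Tiam2, Sdk2, Dlx6os1 and Cdca7, and 6 of 12 astrocyte and 7 of 15 oligodendrocyte markers were also found in over 10% of its nuclei. Over 2-fold the level of all neuronal nuclei outside the cluster were 11 of the 12 astrocyte, 7 of the 15 oligodendrocyte and 10 of 10 cycling markers. Rbfox3, which encodes NeuN, was at 249 ± 40.04 CPM (UMIs of a gene as a share of all UMIs in the same nuclei, scaled by 1000000) in these nuclei (SD, n = 6 libraries) and was seen in 28.2% of them, against 67.6% to 91.3% of nuclei in the other neuronal types. Detection depends on depth, and the median was 2363 UMIs in the neuroblast-like and 6481.5 in mature-interneuron-like nuclei. Rbfox3 was at 254 ± 32.1 CPM in the latter, which overlapped the neuroblast-like level, and at 339 to 765 in the remaining neuronal types. The limits used to name clusters were chosen once the clusters were known.

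The 4 Dlx transcripts were highest in the neuroblast-like nuclei and reached into mature inhibitory neurons. Dlx1, which acts redundantly with Dlx2, was at 189 ± 57.8 CPM in neuroblast-like nuclei, 74.2 ± 6.95 in mature-interneuron-like nuclei and 69.9 ± 33.9 in a neuronal cluster led by Cpa6 (SD, n = 6 libraries throughout this paragraph). The latter 2 did not differ beyond their spread. Dlx2 was at 38.2 ± 20.9 CPM in neuroblast-like nuclei, 8.36 ± 1.88 in mature-interneuron-like nuclei and 7.31 ± 4.18 in the Cpa6-led cluster. Dlx5, a later member of the cascade, was at 19.8 ± 12.3 CPM in neuroblast-like and 16.5 ± 13.2 in Cpa6-led nuclei, which overlapped, and at 8.10 ± 1.84 in striatal-projection-like and 7.93 ± 2.37 in mature-interneuron-like nuclei. Dlx6os1 was at 1041 ± 194 CPM in neuroblast-like nuclei, 385 ± 92.9 in Cpa6-led, 343 ± 20.9 in mature-interneuron-like and 153 ± 18.8 in striatal-projection-like nuclei. Neurons that took no subtype name were at 84.9 ± 6.81 CPM, and excitatory-like nuclei and each named non-neuronal type were at or below 21.7 CPM. The order after the neuroblast-like nuclei differed between the 4 transcripts, since Dlx1 was at 15.6 ± 3.18 CPM in neurons without a subtype name and 5.18 ± 1.80 in striatal-projection-like nuclei, while Dlx5 did not differ between striatal-projection-like and mature-interneuron-like nuclei beyond its spread.

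The other 4 members spread differently over the neurons. Sp8 was at 37.3 ± 18.3 CPM in neuroblast-like and 23.9 ± 4.82 in Cpa6-led nuclei (SD, n = 6 libraries), and at or below 1.74 in the other named types. Sp9 was at 65.1 ± 26.9 CPM in neuroblast-like, 32.8 ± 6.89 in Cpa6-led, 20.1 ± 7.92 in mature-interneuron-like and 13.8 ± 0.818 in striatal-projection-like nuclei. Dcx was highest in the Cpa6-led cluster, at 477 ± 68.1 CPM, with 357 ± 106 in neuroblast-like nuclei, 103 ± 7.25 in mature-interneuron-like nuclei and 87.7 ± 12.4 in excitatory-like nuclei. Sox11 was at 219 ± 68.8 CPM in neuroblast-like nuclei, against 53.4 ± 8.25 in neurons without a subtype name, 41.7 ± 9.91 in mature-interneuron-like and 27.5 ± 12.2 in Cpa6-led nuclei. The Cpa6-led cluster therefore carried Dcx, Sp8 and Dlx6os1 without the Sox11 level of the neuroblast-like nuclei. Oligodendrocyte-lineage-like nuclei held Dcx at 30.5 ± 4.35 CPM, which overlapped the 21.9 ± 7.20 of immune-like nuclei.

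**Figure D1:**
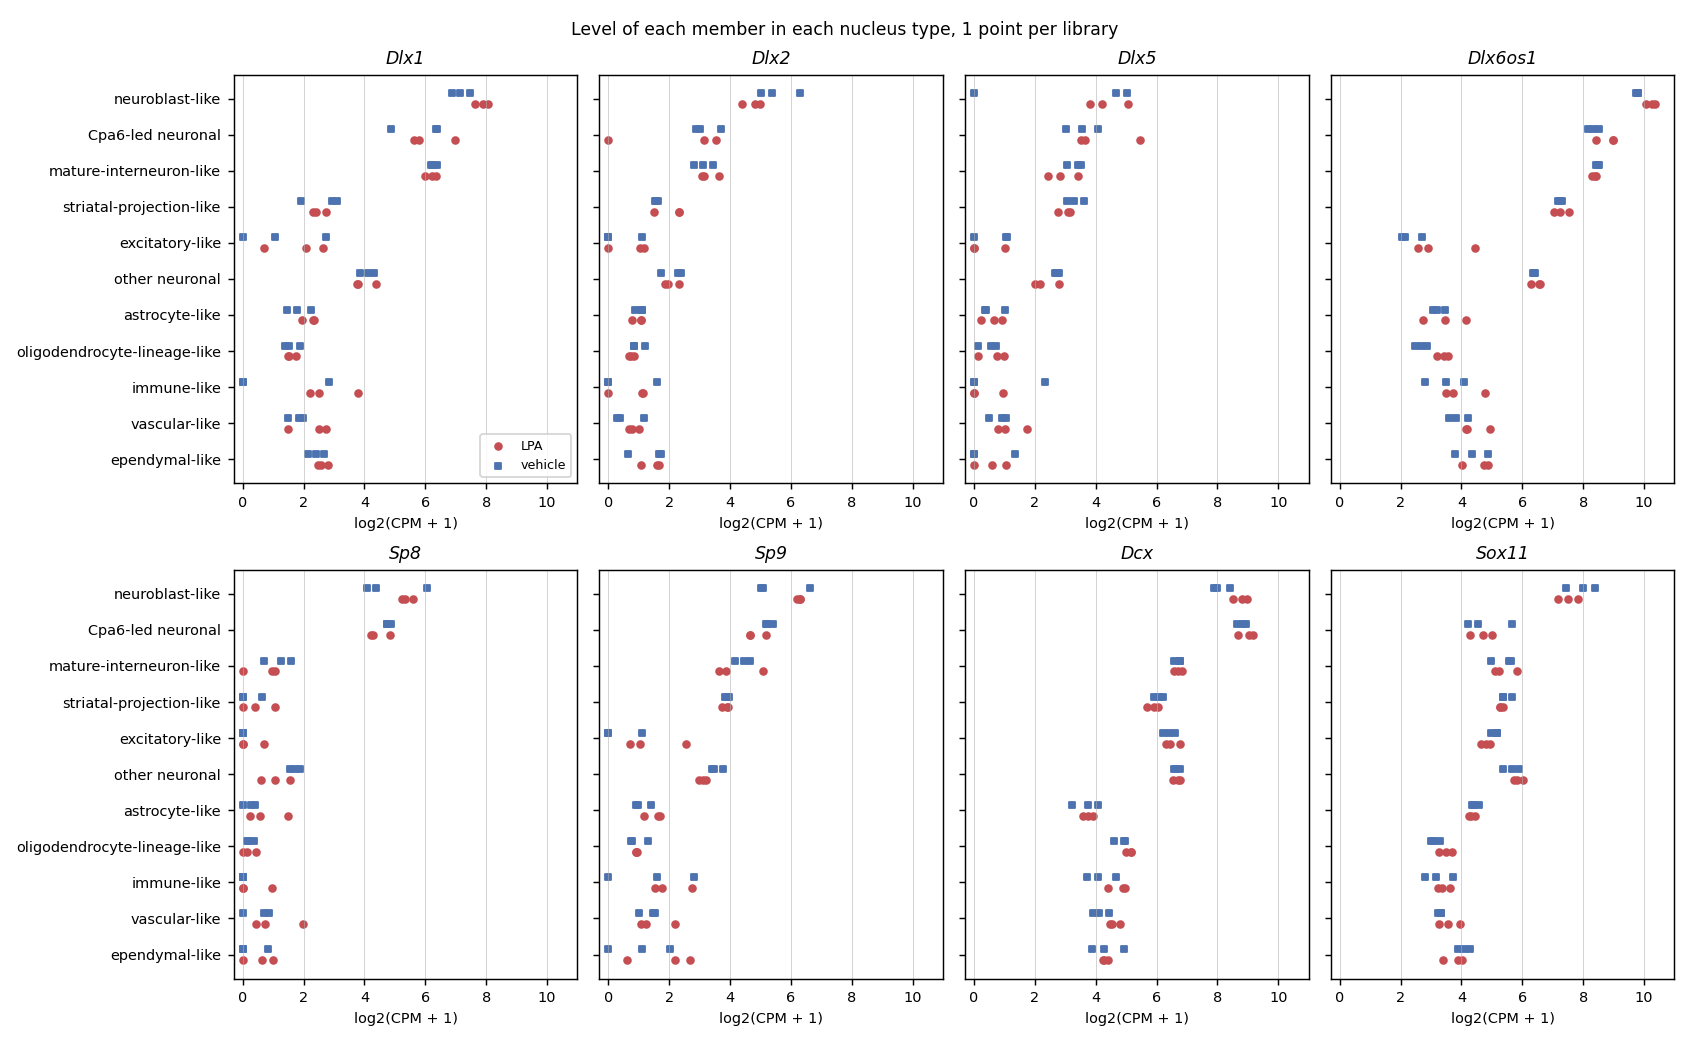
Level of each member in each named nuclear type, as log2(CPM + 1), with 1 point per library. The Dlx genes, Sp8, Sp9 and Sox11 were highest in the neuroblast-like nuclei, and Dcx was highest in the Cpa6-led cluster at 477 CPM.

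Neuroblast-like nuclei made up a larger share of the nuclei in every LPA library than in any vehicle library. They numbered 89 of 8083, 157 of 9746 and 85 of 8624 nuclei in the LPA libraries and 27 of 7579, 24 of 11666 and 57 of 11745 in the vehicle libraries. That is 1.10%, 1.61% and 0.986% with LPA against 0.356%, 0.206% and 0.485% with vehicle, with means of 1.23% ± 0.333 and 0.349% ± 0.140 (SD, n = 3), a 3.53-fold ratio and a difference of 0.883 percentage points. The highest vehicle share had an exact 95% binomial interval of 0.368% to 0.628% and the lowest LPA share one of 0.788% to 1.22%, intervals that cover counting error only. The two-sided exact permutation test gave p = 0.1, the smallest that 3 against 3 libraries allow. Of neuronal nuclei the shares were 5.78% ± 2.23 and 1.33% ± 0.394, again without overlap (exact permutation p = 0.1).

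These nuclei also differed in makeup, so the share counts nuclei that fell into 1 cluster and not a fixed type. Dlx-positive nuclei were 67.4%, 66.9% and 67.1% of the neuroblast-like nuclei with LPA and 48.1%, 45.8% and 43.9% with vehicle. Such a cut depends on depth. Median depth in neuroblast-like nuclei was 2461, 2404 and 2528 UMIs with LPA and 2184, 2037 and 1897 with vehicle. A Dlx6os1 UMI was found in 71.9% of neuroblast-like nuclei with LPA and 51.9% with vehicle, libraries pooled. After thinning to 1000 UMIs per nucleus these shares were 54.0% and 42.6%, a smaller gap in the same direction. Thinned shares for Dlx1 were 21.47% with LPA and 12.04% with vehicle. Dlx2, at 3.07% and 4.63%, and Dlx5, at 1.84% and 4.63%, went the other way and rest on few UMIs. Counting only neuroblast-like nuclei with 2 Dlx UMIs, 0.742%, 1.08% and 0.661% of all LPA nuclei qualified, against 0.172%, 0.0943% and 0.213% with vehicle, a 5.18-fold ratio of the means (exact permutation p = 0.1). This ratio was taken on nuclei not thinned to equal depth, so it carries the same limit. Nuclei with at least 2 UMIs of cycling genes were 10.1%, 8.92% and 9.41% of the neuroblast-like nuclei with LPA and 33.3%, 12.5% and 19.3% with vehicle, where they rest on 9, 3 and 11 nuclei. As a share of all nuclei, cycling neuroblast-like nuclei were at 0.116% ± 0.0257 with LPA and 0.0794% ± 0.0481 with vehicle (SD, n = 3; exact permutation p = 0.5). Without vehicle replicate 1 the mean cycling share in vehicle was 15.9%. The 19 neuroblast markers that name the cluster summed to 17022 to 19199 CPM with LPA and 8359 to 9402 with vehicle, where Dlx-positive neuronal nuclei of vehicle libraries were at 7504 to 8071. The neuron list was at 9626 to 10496 and 5943 to 8804 CPM and the mature interneuron list at 6318 to 8322 and 2314 to 4877. The vehicle nuclei of the cluster thus had a lower sum of the naming markers. Such sums follow the strongest genes of a list and do not measure each gene. Over all libraries, Erbb4 was at 5645, Meis2 at 4288 and Robo2 at 2950 CPM in the cluster. Every other naming marker was at or below 497. Of the mature interneuron list, Adarb2 was at 4622 and Nxph1 at 1535 CPM, and every other gene at or below 224. The astrocyte list was at 1627 to 2046 CPM with LPA and 2080 to 3106 with vehicle, and 4 excitatory precursor markers were at 0 to 24.9 and 57.4 to 95.1 CPM. The part of these differences in makeup in the 3.53-fold ratio was not tested.

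**Figure D2:**
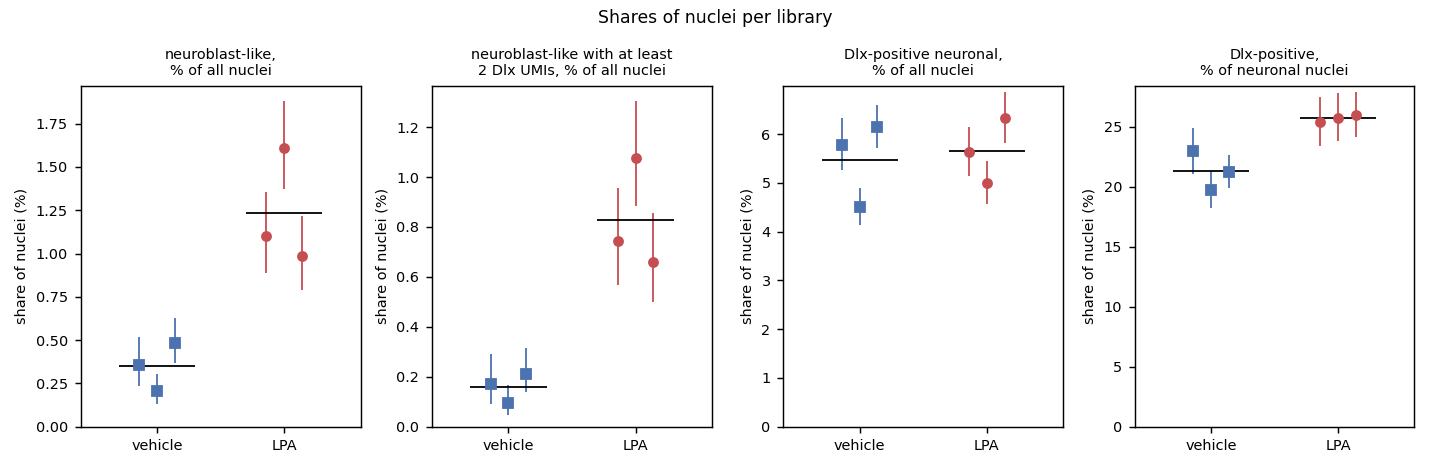
Shares of nuclei per library in percent, with exact 95% binomial intervals as bars, 1 point per library and a line at the group mean. The neuroblast-like share lay between 0.986% and 1.61% with LPA and between 0.206% and 0.485% with vehicle, and the Dlx-positive share of all nuclei overlapped.

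Dlx-positive nuclei took a larger share of the neuronal nuclei with LPA and an overlapping share of all nuclei. They were 25.4%, 25.8% and 26.0% of neuronal nuclei with LPA and 23.0%, 19.8% and 21.2% with vehicle, a difference of 4.41 percentage points with no overlap (25.7% ± 0.291 and 21.3% ± 1.61, SD, n = 3; exact permutation p = 0.1). Thinned to 1000 UMIs per nucleus, which left out 0.329% of LPA and 0.201% of vehicle neuronal nuclei, the shares were 4.67% ± 0.930 and 2.94% ± 0.405 (p = 0.1, exact permutation). Outside the neuroblast-like cluster they were 23.2% ± 1.13 and 21.0% ± 1.55 and overlapped (exact permutation p = 0.2). Of all nuclei, Dlx-positive neuronal nuclei were 5.63%, 5.00% and 6.32% with LPA and 5.78%, 4.50% and 6.15% with vehicle, which overlapped (exact permutation p = 0.8). Neuroblast-like nuclei were 15.1% ± 5.79 of the Dlx-positive nuclei with LPA and 2.84% ± 0.692 with vehicle, and the Cpa6-led cluster 6.50% ± 1.83 and 11.04% ± 11.8. Vehicle replicate 3 held 380 of the 680 Cpa6-led nuclei. Striatal-projection-like nuclei were 5.75%, 4.57% and 4.72% of nuclei with LPA and 6.33%, 6.02% and 6.28% with vehicle (exact permutation p = 0.1).

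Outside neurons the same limit of 2 Dlx UMIs was met by 0.265% of immune-like nuclei at a median depth of 1776 UMIs, 0.406% of astrocyte-like nuclei at 3074 and 0.489% of oligodendrocyte-lineage-like nuclei at 4620. It was met by 0.888% of vascular-like nuclei at 2650, 1.93% of ependymal-like nuclei at 3919 and 8.46% of nuclei in unnamed clusters at 6190.5, against 61.7% of neuroblast-like nuclei at 2363. Scrublet called 4 of the 5 such immune-like nuclei and 82.4% with LPA and 87.0% with vehicle of those in unnamed clusters, but 1 of 222 such neuroblast-like nuclei with LPA and 2 of 49 with vehicle. The part of doublets and free RNA in the non-neuronal values was not tested.

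Across all nuclei, none of the 8 members was called by edgeR's quasi-likelihood test (a Benjamini-Hochberg adjusted p under 0.05, with a log2 fold change of 0.25 or more in size), while 5.71% of 20207 genes were called (693 higher and 461 lower in LPA). In such sums fewer nuclei of a type and less RNA per nucleus cannot be told apart. Dlx6os1, the member with most UMIs, had 2510, 2649 and 2779 UMIs with LPA and 2027, 2586 and 3397 with vehicle, a log2 fold change of 0.06 ± 0.12 (SE). The groups overlapped. Dlx1 had 354, 437 and 532 UMIs with LPA and 343, 433 and 599 with vehicle (log2 fold change 0.01 ± 0.18), and Dlx2 had 82, 77 and 109 against 80, 83 and 127 (-0.05 ± 0.22). Dlx5 had 84, 99 and 112 UMIs with LPA against 112, 125 and 147, a log2 fold change of -0.32 ± 0.15 with an adjusted p of 0.27 from edgeR. The Dlx5 groups touched at 112 UMIs and their CPM overlapped, and leaving out 1 library gave -0.42 to -0.24.

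Sp8, with 24, 78 and 44 UMIs with LPA and 21, 52 and 96 with vehicle, was too sparse to bound (log2 fold change -0.13 ± 0.51, -1.16 to 0.90 within 2 SE). Sp9 had 192, 223 and 231 UMIs against 216, 263 and 285 (log2 fold change -0.18 ± 0.11, edgeR adjusted p = 0.40). Dcx had 2082, 2341 and 2532 UMIs with LPA and 1716, 2547 and 3173 with vehicle (-0.02 ± 0.14), and Sox11 1023, 1248 and 1072 against 1042, 1178 and 1069 (0.07 ± 0.09). Both overlapped between the groups. Summed over neuronal nuclei alone no member was called either, where 0.042% of 16647 genes were, with Dlx6os1 at a log2 fold change of 0.23 ± 0.08 (edgeR adjusted p = 0.65) and Dlx5 at -0.30 ± 0.15 (0.75).

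The part of the UMIs that came from the neuroblast-like cluster differed, while the sums overlapped. The neuroblast-like cluster gave 16.3% ± 7.50 of Dlx1 UMIs with LPA and 2.48% ± 0.963 with vehicle (SD, n = 3), and 13.5% ± 4.89 and 2.53% ± 0.705 of Dlx6os1 UMIs. For Sp8 the shares were 27.4% ± 8.93 and 5.01% ± 3.21, for Sp9 10.4% ± 3.17 and 1.41% ± 0.488 and for Dcx 5.40% ± 0.828 and 0.899% ± 0.412. Per 1000 nuclei of a library, this cluster held 7.84 ± 2.81 Dlx1 UMIs with LPA and 1.14 ± 0.540 with vehicle, 39.9 ± 10.96 and 6.73 ± 2.60 of Dlx6os1, and 14.1 ± 0.792 and 2.21 ± 1.23 of Dcx. All other nuclei together held 42.3 ± 11.5 and 43.3 ± 6.49 Dlx1 UMIs, 262 ± 37.0 and 253 ± 31.9 of Dlx6os1 and 249.7 ± 27.9 and 236 ± 26.7 of Dcx. Outside the cluster the groups overlapped for each of these 3 genes, and most of their UMIs lay there. With the neuroblast-like cluster left out, the all-nuclei log2 fold changes were -0.20 for Dlx1 and -0.11 for Dlx6os1, both uncalled.

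**Figure D3:**
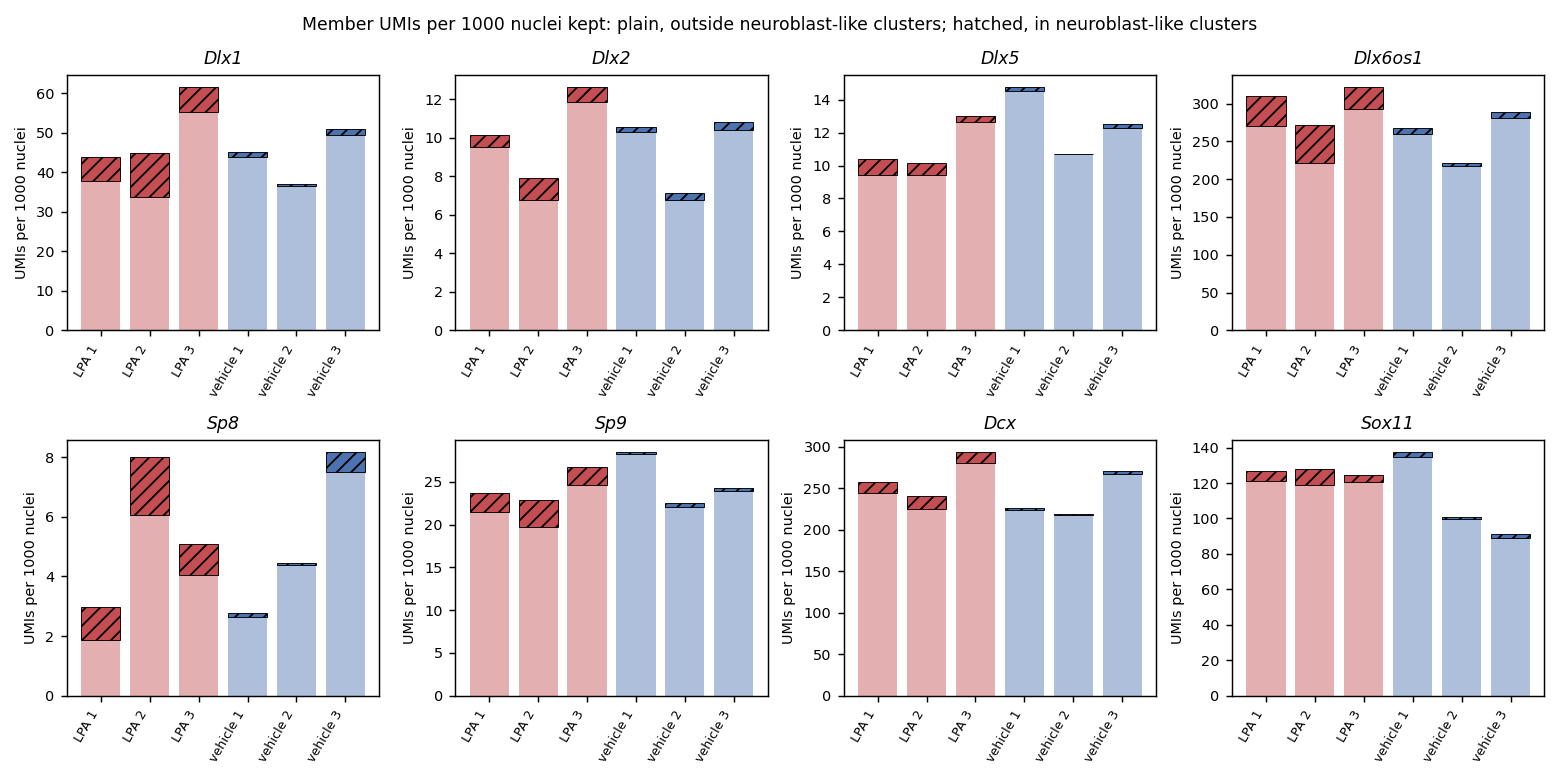
UMIs of each member per 1000 nuclei of a library, with 1 stacked bar per library, hatched for the neuroblast-like cluster and plain for all other nuclei. The neuroblast-like part of Dlx6os1 averaged 39.9 with LPA and 6.73 with vehicle, while the part of all other nuclei averaged 262 and 253.

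In the lists around the members some genes were called over all nuclei, where 5.71% of 20207 genes were called. Of 28 tested genes of interneuron specification, 3 rose (Sox6 0.58, Pax6 0.47 and Satb1 0.28 in log2 fold change) and 2 fell (Nr2f2, a ganglionic eminence factor, at -0.41, and Foxp2 at -0.32). Of 31 neuroblast cytoskeleton and migration genes, St8sia2, which adds polysialic acid to NCAM, rose by 0.43, and Stmn4, a tubulin-binding protein, was at -0.32 and fell. Robo1 was at -0.19 (edgeR adjusted p = 0.073) and Prokr2, a receptor that guides neuroblasts to the olfactory bulb, at 0.58 (edgeR adjusted p = 0.088). Of 23 cell division genes, Top2a (0.74) and Kif11 (0.55) rose, while Ect2 was at 0.46 and Bub1 at 0.59 without passing. Of 9 excitatory neuroblast genes, Eomes, the factor of intermediate progenitors, fell (-0.79, edgeR adjusted p = 0.044), with Neurod6 at 0.25, Neurod2 at -0.10 and Neurod1 at 0.28, all uncalled. Leaving out 1 library gave 2 to 4 interneuron genes higher and 2 to 3 lower. For the other lists it gave 0 to 2 cytoskeleton genes higher and 0 to 2 lower. Division genes higher were then 0 to 2 and excitatory genes lower 0 to 1. The calls in the lists other than interneuron specification thus rest on the full set of libraries. None of the cytoskeleton genes was called without LPA replicate 1, no division gene without LPA replicate 2, and an excitatory gene was called in none of the sets but the one without vehicle replicate 1. The medians of the 4 lists were 0.04, -0.02, 0.21 and -0.08 against -0.01 over all genes.

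Within Dlx-positive neuronal nuclei only Sp8, Sp9, Dcx and Sox11 were tested, since the 4 Dlx transcripts chose the nuclei. No gene was called (0% of 12890 tested by edgeR), while 701 had an unadjusted p under 0.05 and DESeq2 called 11. Dcx had 394, 430 and 550 UMIs with LPA and 301, 326 and 591 with vehicle, a log2 fold change of 0.21 ± 0.18 (SE). Sox11 had 154, 181 and 163 UMIs against 160, 125 and 135 (0.27 ± 0.16), Sp9 48, 71 and 52 against 65, 46 and 80 (-0.12 ± 0.23), and Sp8 13, 28 and 14 against 11, 12 and 46 (-0.27 ± 0.59). All 4 overlapped between the groups, with edgeR adjusted p from 0.96 to 0.99. The Dlx transcripts in these nuclei are a description. Dlx6os1 had 1561, 1664 and 1761 UMIs with LPA and 1296, 1436 and 1991 with vehicle, Dlx1 199, 264 and 281 against 208, 230 and 329, Dlx2 33, 32 and 50 against 29, 30 and 56, and Dlx5 45, 36 and 62 against 58, 54 and 79.

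Lists showed no calls in Dlx-positive nuclei. St8sia2 was at a log2 fold change of 0.74 ± 0.15 (edgeR adjusted p = 0.20), Prokr2 at 1.98 ± 0.42 (0.22), Robo2, a receptor for SLIT guidance cues, at 0.47 ± 0.10 (0.33) and Dpysl3 at 0.31 ± 0.10 (0.69). Satb1 was at 0.32 ± 0.15, Etv1 at 0.62 ± 0.29 and Isl1 at -0.35 ± 0.20, with adjusted p of 0.92 or above. Of division genes Mcm6 was at -0.62 ± 0.36, Mki67 at 0.76 ± 0.55, Pcna at -0.34 ± 0.32 and Bub1b at 0.40 ± 0.41, and of excitatory genes Sema3c was at -0.29 ± 0.19 and Unc5d at -0.10 ± 0.15. Medians were 0.18 over 24 interneuron, 0.07 over 29 cytoskeleton, 0.06 over 6 division and -0.19 over 2 excitatory genes, against -0.01 over all genes. Without the neuroblast-like nuclei Dcx was at -0.01 in the Dlx-positive nuclei.

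In other neuronal nuclei edgeR called 0.0314% of 15943 genes and no member. Sp8 was at a log2 fold change of -0.40 ± 0.44, Sp9 at -0.21 ± 0.14, Dcx at -0.05 ± 0.11 and Sox11 at 0.13 ± 0.10. The LPA effect in Dlx-positive nuclei minus that in other neuronal nuclei was called for 0.0196% of 15273 genes and for no member. That difference was 0.28 ± 0.10 for Dcx on the log2 scale (unadjusted p = 0.0073, edgeR adjusted p = 0.95), 0.15 ± 0.12 for Sox11, 0.08 ± 0.23 for Sp9 and 0.16 ± 0.55 for Sp8.

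**Figure D4:**
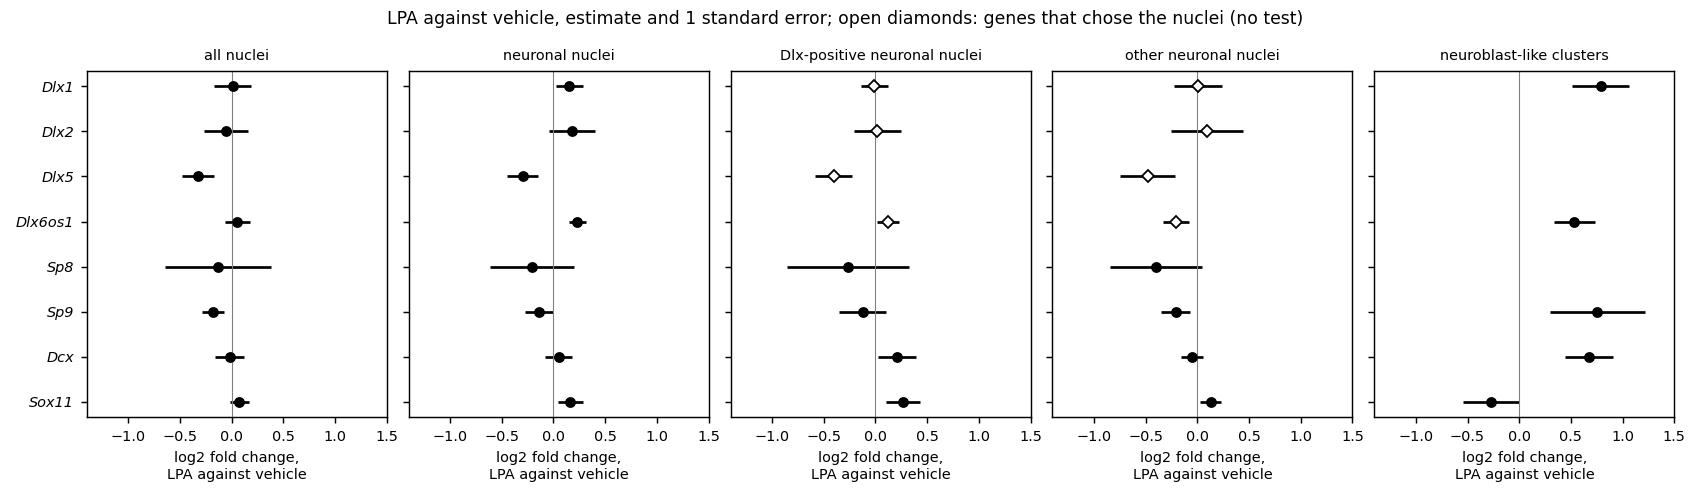
Log2 fold change of each member, LPA against vehicle, with its standard error, in each population. Across all nuclei the values ran from -0.32 for Dlx5 to 0.07 for Sox11, and in neuroblast-like nuclei from -0.27 for Sox11 to 0.79 for Dlx1.

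Within neuroblast-like nuclei, Dlx1, Dlx6os1 and Dcx were higher in all LPA libraries than in all vehicle libraries but did not pass the test. Dlx1 was at 197, 269 and 239 CPM with LPA and 174, 118 and 139 with vehicle (log2 fold change 0.79 ± 0.27, edgeR adjusted p = 0.13). Dlx6os1 was at 1301, 1233 and 1082 CPM against 887, 883 and 861 (0.53 ± 0.20, edgeR adjusted p = 0.16). Dcx was at 451, 364 and 504 CPM against 254, 235 and 336 (0.68 ± 0.23, edgeR adjusted p = 0.12). These vehicle levels rest on 6 to 17 Dlx1, 45 to 105 Dlx6os1 and 12 to 41 Dcx UMIs a library. In this population 3.37% of 4091 genes were called, 94 higher and 44 lower, and 5 of the 8 members passed the filter on low counts. Sp9 was at 72.5, 77.2 and 78.2 CPM with LPA and 31.7, 98.1 and 32.8 with vehicle (log2 fold change 0.75 ± 0.46), and Sox11 at 181, 227 and 143 against 333, 255 and 172 (-0.27 ± 0.27). Sp9 and Sox11 overlapped between the groups. The other three were sparse. Sp8 had 9, 19 and 9 UMIs with LPA and 1, 1 and 8 with vehicle. Dlx2 had 5, 11 and 7 UMIs against 2, 4 and 5, and Dlx5 8, 7 and 3 against 2, 0 and 3. The filter removed them, so they were not tested here. Raw UMIs also follow the number of nuclei, 331 with LPA and 108 with vehicle. In CPM, Dlx2 was lower with LPA without overlap, at 20.1 to 30.4 against 31.7 to 78.5. Sp8 and Dlx5 overlapped in CPM. Differences in all of them rest on few UMIs and could not be bounded.

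**Figure D5:**
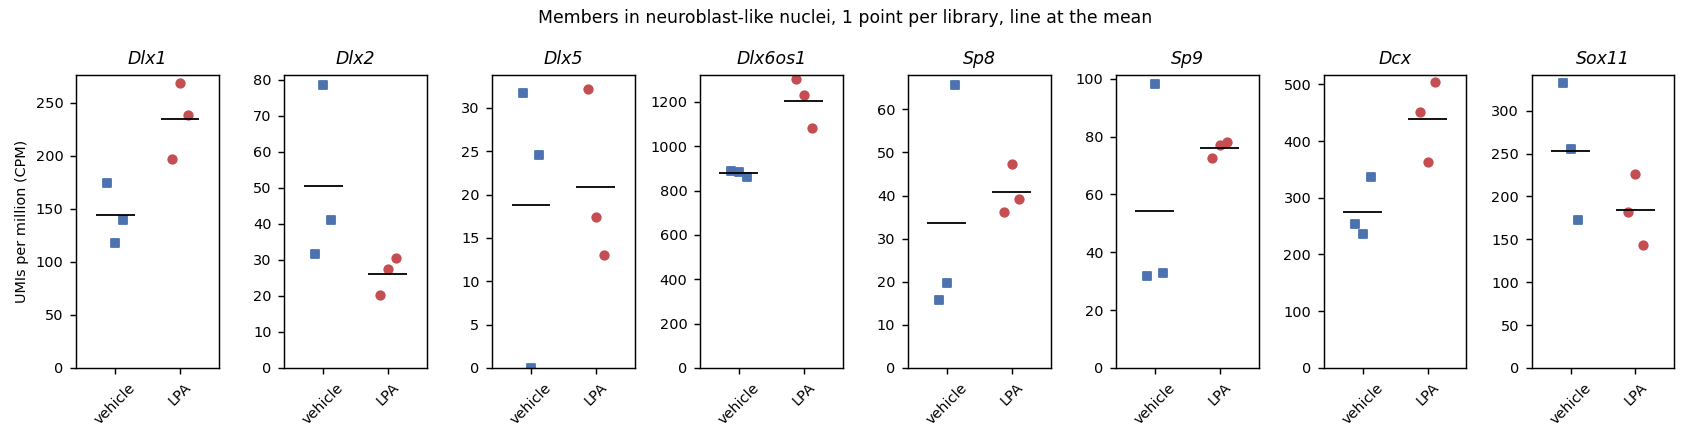
Level of each member in the neuroblast-like nuclei, in CPM, with 1 point per library and a line at the mean. Dlx1, Dlx6os1 and Dcx were higher with LPA without overlap, and the sparse Dlx2, which was not tested, was lower without overlap. None of the 5 members tested was called.

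The call on those 3 genes depended on the processing. With every gene of at least 1 UMI tested, edgeR called Dlx1 (log2 fold change 1.04), Dlx6os1 (0.80) and Dcx (0.94), although the median of all genes was 0.27 there. Without the mitochondrial filter they were called at 1.31, 1.17 and 1.40, and with finer clusters at 1.28, 1.12 and 0.96. In these 2 settings the clusters were rebuilt. Calls over all genes also differed. They were 230 of 17409 with every gene tested, 345 of 4323 without the mitochondrial filter and 281 of 4787 with finer clusters. The main fit called 138 of 4091.

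Around the members, 138 genes were called in the neuroblast-like nuclei, among them 5 of 16 interneuron genes that rose. Erbb4, the neuregulin receptor of migrating interneurons, was 1.56 ± 0.19 higher on the log2 scale, Robo2 1.57 ± 0.21 and Grm8, a glutamate receptor, 1.78 ± 0.23 (edgeR adjusted p = 2.4e-05, 6.3e-05 and 6.3e-05). Of 16 interneuron genes tested, 5 rose (Pbx3 1.57, Etv1 1.43, Gad1 1.09, Meis2 0.91 and Tshz1 0.84) and Sox6 fell (-1.30 ± 0.21). Both tested excitatory neuroblast genes, Unc5d (-1.68 ± 0.24) and Sema3c (-2.15 ± 0.49), fell, as did Mir99ahg (-1.37 ± 0.21). Only 1 excitatory gene was called without vehicle replicate 1 or without vehicle replicate 3, and 0 without Scrublet calls. Erbb4, Robo2, Etv1, Meis2 and Tshz1 are among the 19 markers that name the cluster. Of 23 cytoskeleton genes only Erbb4 and Robo2 were called, and of 2 division genes neither was, with Ccnd2 at -0.88 (edgeR adjusted p = 0.055) and Top2a at -0.79. The list medians were 0.27 for interneuron, 0.39 for cytoskeleton, -0.83 for division and -1.92 for excitatory genes, against -0.00157 over all genes tested. Because these genes also place nuclei in clusters, the changed levels and the changed share of Dlx-positive nuclei are measures of the same nuclei.

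Outside neurons 1 call was made among the members. Dlx6os1 was at 9.85, 8.24 and 10.7 CPM in the oligodendrocyte-lineage-like nuclei of LPA libraries and at 4.61, 5.32 and 6.29 in those of vehicle libraries (log2 fold change 0.80 ± 0.16, edgeR adjusted p = 0.0019), where 12% of 15132 genes were called. The groups did not overlap, and without nuclei called by Scrublet the value was 0.77. A Dlx6os1 UMI was found in 3.20% of these nuclei with LPA and 2.12% with vehicle, and after thinning to 1000 UMIs in 0.650% and 0.514%. The same share in immune-like nuclei, which should lack the gene, was 2.29% and 1.51%, and 1.06% and 1.19% after thinning. In each group the thinned share in the oligodendrocyte-lineage-like nuclei was below that of the immune-like nuclei, of which 1319 and 503 were thinned. Whether the call reflects expression in oligodendrocyte-lineage-like nuclei was not tested. Rbfox3, a neuronal gene, was at 11.5 ± 1.84 CPM with LPA and 9.28 ± 1.28 with vehicle in the oligodendrocyte-lineage-like nuclei (SD, n = 3). The part of free RNA and of doublets that Scrublet missed in the call was not tested. Dcx and Sox11 there were at 0.25 ± 0.10 and 0.42 ± 0.15 in log2 fold change and uncalled. In astrocyte-like, immune-like, vascular-like and ependymal-like nuclei no tested member was called, where 8.32%, 9.65%, 8.84% and 4.22% of genes were.

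Across 53 clusters, the Dlx genes were most like each other, their antisense partners and genes of GABA neurons. The levels of Dlx1 followed Dlx1as (Pearson r = 0.86 of log2(CPM + 1), UMIs of all libraries summed) and Dlx6os1 (0.79). Dlx2 followed Dlx6 (0.78), Dlx5 (0.74) and Dlx1 (0.72), and Dlx5 followed Dlx6 (0.85), Gm14204 (0.82) and Slc32a1, the vesicular GABA transporter (0.81). Dlx6os1 followed Gad2, which makes GABA (0.81), Gm14204 (0.81) and Sox1ot (0.79). Sp8 was nearest to Dlx1 (0.72), Frmd7 (0.67) and Dlx1as (0.64), and Sp9 to Dlx1 (0.75), Cdca7 (0.73) and Dlx6os1 (0.67). Dcx stood apart, with Ppfia2 (0.89) and Snap25 (0.87), as did Sox11 with Mpp3 (0.82), Wdr47 (0.82) and Cenpv (0.81). The clusters share libraries and differ in depth, and Dlx1as and Dlx6 overlap members in antisense.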

How the data were processed

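Single-nucleus RNA-seq libraries (10x 3′ v3) came from 6 samples, 3 per group, each named by its label; replicate numbers were not taken to pair them. The UMI counts are as the authors deposited them: reads were counted with Cell Ranger 4.0.0 against a pre-mRNA mm10 reference with introns, giving filtered matrices of raw UMIs per gene and barcode. The authors' normalization, integration and single-nucleus tests were not repeated.

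Nuclei with under 300 genes, over 1% mitochondrial UMIs or outlying UMIs (1.5 times the interquartile range) were removed, following the study's methods with the factor chosen here. Nuclei were clustered with scanpy 1.11.5 (3000 variable genes, 40 components, 30 neighbours, Leiden resolution 1), and neuronal ones again, and named from marker lists. UMIs were summed per library and population and compared with edgeR 4.0.16 (quasi-likelihood test, TMM, filterByExpr, Benjamini-Hochberg adjustment over all genes tested, called where the adjusted p was under 0.05 and the log2 fold change 0.25 or more in size). DESeq2 1.42.0 was an alternative. Shares were compared by a two-sided exact permutation test over 20 assignments. The scripts were tested on simulated data. Named genes were the 8 members, the 4 genes of lowest adjusted p in each list over all and over Dlx-positive nuclei, the 3 of lowest adjusted p in each direction among those called in Dlx-positive and neuroblast-like nuclei, and the 3 most correlated with each member. Other list genes that were called are named too, and some genes under this rule are not reported here.

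The members and lists were chosen with earlier results of these data known. The labels give 3 samples a group without stating separate litters, so p-values measure the spread between these libraries. Libraries held 48852970 to 65688644 UMIs before filtering. Pairs of the same group differed by 13.3 to 26.8 times the sampling variance, so no library was a copy of another. Promoter windows and names come from RefSeq, where Dlx5 had no window.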

Additional observations from a re-analysis of the deposited data

Results flagged for a closer look

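Tests of whether the LPA effect in Dlx-positive neuronal nuclei differed from that in other neuronal nuclei called 3 genes, none a member. Spon1, which encodes a secreted floor plate protein, had a difference of 0.67 ± 0.11 on the log2 scale (Dlx-positive minus other, edgeR adjusted p = 0.016). Frmd4b had a difference of 0.50 ± 0.09 (edgeR adjusted p = 0.024) and Pdzrn3 one of -0.64 ± 0.11 (edgeR adjusted p = 0.016). They were picked out because the test of the difference itself passed. Leaving out 1 library gave from 0 calls (without LPA replicate 1) to 11 (without LPA replicate 3) in this test. Neuroblast-like nuclei were 15.1% of the Dlx-positive nuclei with LPA and 2.84% with vehicle. The part of this makeup in the 3 differences was not tested.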

How the results depend on the processing

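Over all alternatives, 538 of 593 member fold changes kept direction and side of the threshold, 34 turned direction, 9 crossed into a call and 12 moved otherwise. Of the counts over gene lists 49 of 352 moved. Of the shares, 91 of 97 held and 6 turned. The Dlx-positive share of all nuclei differed by -0.60 percentage points with a limit of 1 Dlx UMI. Leaving out 1 library gave -0.315 to 0.509 for that share, -1.20 to 0.224 for the Cpa6-led cluster (0.224 without vehicle replicate 3), -0.813 to 0.0529 for mature-interneuron-like nuclei, -0.124 to 0.660 for excitatory-like nuclei and 0.694 to 1.01 for neuroblast-like nuclei. Neuroblast-like shares were 1.14% and 0.414% without the mitochondrial filter, 1.41% and 0.368% without Scrublet calls, 1.34% and 0.497% at Leiden resolution 2 and 1.26% and 0.356% in nuclei of at least 1000 UMIs. The last, the share with 2 Dlx UMIs, the oligodendrocyte-lineage value without Scrublet calls and the values without the neuroblast-like cluster were chosen after seeing the data.

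DESeq2 called 25 genes in neuronal, 11 in Dlx-positive and 22 in other neuronal nuclei, and with every gene of at least 1 UMI tested the counts were 42, 54 and 115, with 230 in neuroblast-like nuclei. Dlx-positive nuclei gave 1 call at 1 UMI, 1 at 3 UMIs, 5 with Dlx1, Dlx2 and Dlx5 only and 8 over any nucleus. Neuroblast-like nuclei gave 345 calls without the mitochondrial filter and 281 at Leiden resolution 2, and 3 members were called in each and with every gene tested. Leaving out 1 library gave 496 (LPA replicate 1) to 1391 calls over all nuclei, with 686 without LPA replicate 2 and 639 without vehicle replicate 3. It gave 1 to 28 calls in neuronal and 2 to 39 in other neuronal nuclei (both highest without vehicle replicate 1), 0 to 19 in Dlx-positive nuclei and 0 to 11 for the difference of effects (both highest without LPA replicate 3), and 81 (LPA replicate 1) to 147 in neuroblast-like nuclei. No member was called in any of these, and the cause was not tested.

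With a replicate block edgeR called 1315 genes over all, 11 in neuronal, 9 in Dlx-positive, 10 in other neuronal and 143 in neuroblast-like nuclei, and no member. Deviations of log2 CPM from the group mean correlated at 0.107, 0.244 and -0.0327 between same-numbered LPA and vehicle libraries. Between unlike numbers they correlated at -0.265 to 0.199. These ranges overlapped, and the numbers were not taken to pair the libraries.

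Turned values among those checked for direction were all uncalled. With the neuroblast-like cluster left out they were Dlx1 at -0.20 and Dlx6os1 at -0.11 over all nuclei and Dcx at -0.010 in Dlx-positive nuclei. Sp9 turned to 0.13 in Dlx-positive nuclei (Dlx1, Dlx2 and Dlx5 only). Sox11 in neuroblast-like nuclei turned to 0.34 and 0.44 (no mitochondrial filter, resolution 2). Leaving out 1 library gave, over all nuclei, -0.13 to 0.22 for Dlx1, -0.23 to 0.16 for Dlx2, -0.039 to 0.24 for Dlx6os1, -0.62 to 0.48 for Sp8 and -0.13 to 0.18 for Dcx. In neuronal nuclei it gave -0.022 to 0.43 for Dlx2, -0.67 to 0.24 for Sp8 and -0.042 to 0.21 for Dcx. In Dlx-positive nuclei Sp8 ran from -0.80 to 0.62 and Sp9 from -0.41 to 0.066, and in other neuronal nuclei Sp8 from -0.75 to 0.012 and Dcx from -0.14 to 0.075. Sox11 in neuroblast-like nuclei ran from -0.53 to 0.0015, and the difference of effects from -0.41 to 0.94 for Sp8 and from -0.11 to 0.33 for Sp9.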

Other observations

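In the Cpa6-led cluster, Dcx was at 580, 412 and 518 CPM with LPA and 457, 495 and 400 CPM with vehicle, and Sp8 at 18.3, 27.9 and 17.5 against 28.6, 25.5 and 25.6 CPM. The Dcx groups overlapped, and so did those of Sp8.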
